A study of Mus musculus with 24 samples.

Results

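The 10 apolipoprotein genes Apoa1, Apoa2, Apoa4, Apoa5, Apob, Apoc1, Apoc2, Apoc3, Apoe and Apom were described in fasted mouse liver. They were selected by gene name from the 54532 genes of the deposited table, and all 10 passed the filter on low counts in every comparison. RNA-seq was made from livers of male mice, 8 to 10 weeks old by the study's methods, after a fast of 24 h, and each of the 6 genotype groups had 4 livers. Mice with Rab30 deleted in the whole body (Rab30KO) were compared with wild-type littermates (Rab30 Ctrl). Mice with floxed alleles of both Rab30 and Cpt2 and no Cre (ff;ff, littermates of the double knockouts) were the controls for mice lacking Rab30 in the liver (Rab30L-/-), Cpt2 in the liver (Cpt2L-/-) or both (DKO). The liver deletions used a Cre transgene under the albumin promoter, which acts in hepatocytes and leaves other liver cells with the intact alleles, and the Rab30 alleles lose only exon 4. Cpt2 encodes a mitochondrial enzyme needed to burn long-chain fatty acids, and Rab30 encodes a small GTPase of the Golgi and of vesicles that leave it.

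Apolipoproteins are the protein coat of the particles that carry fat and cholesterol in blood. Apob is the structural protein of very low density lipoprotein (VLDL), which the liver builds around triglyceride, while Apoa1 and Apoa2 are the main proteins of high density lipoprotein (HDL). Apoe directs particles to hepatic receptors, the Apoc proteins and Apoa5 tune lipoprotein lipase and particle clearance, Apom carries sphingosine-1-phosphate on HDL, and Apoa4 is made mainly by the intestine and, in mice, is raised in hepatocytes by fasting or a fat load.

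Levels are given as CPM, the count scaled to library size after correction by the trimmed mean of M values (TMM). All p-values come from the quasi-likelihood test of edgeR unless another test is named, adjusted by Benjamini-Hochberg across the genes tested. Genes were called higher or lower where the adjusted p was under 0.05 and the change 1.2-fold or more. Libraries held 11801027 to 24497738 counts, and the 10 genes together took 2.31% to 4.84% of them. The deleted genes followed the labels only in part over the whole transcript: in CPM with the SD over 4 livers, Rab30 had means of 14.1 ± 10.8 for Rab30 Ctrl, 11.2 ± 5.04 for Rab30KO (overlapping groups, adjusted p = 1), 36.6 ± 9.55 for ff;ff, 17.1 ± 7.36 for Rab30L-/-, 147 ± 29.99 for Cpt2L-/- and 161 ± 57.9 for DKO, and Cpt2 had means of 132 ± 5.16 for ff;ff, 219.5 ± 40.3 for Rab30L-/-, 127 ± 30.2 for Cpt2L-/- and 105 ± 10.9 for DKO. Genotypes are therefore those of the labels. The study reports that Rab30KO mice had no Rab30 mRNA or protein. Its assays of the liver deletions were qRT-PCR for both genes and an immunoblot for Rab30. Hepatocyte markers were abundant in every library, 8 of them, albumin included, summing to between 42357 and 124151 CPM. Of 8 markers of enterocytes, the intestinal cells that make Apoa4, 7 stayed at or under 0.528 CPM in every library, and Cdx1 and Sis had 0 counts in all 24. The exception was Fabp2, which was called higher in both comparisons of Cpt2-deficient livers with ff;ff, by 1.63 and 1.53 on the log2 scale. In whole liver, fewer cells of a type and less RNA per cell cannot be told apart.

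Because 4 of the 10 genes sit together on chromosome 9 (GRCm38), within 43.3 kb, their upstream sequences are shown first. From left to right the cluster holds Apoa1 (ENSMUSG00000032083, chr9:46228580-46230466, plus strand), Apoc3 (ENSMUSG00000032081, chr9:46232933-46235636, minus strand), Apoa4 (ENSMUSG00000032080, chr9:46240696-46243459, plus strand) and Apoa5 (ENSMUSG00000032079, chr9:46268633-46271919, plus strand). The windows are the bases before the RefSeq start on GRCm38.p6, cut where the GENCODE gene begins, and capitals mark the searched motifs.
Apoa4, chr9:46240594-46240695, plus strand: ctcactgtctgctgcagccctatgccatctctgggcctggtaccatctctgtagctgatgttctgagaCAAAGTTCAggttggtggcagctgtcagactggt
Apoa1, chr9:46228380-46228579, plus strand: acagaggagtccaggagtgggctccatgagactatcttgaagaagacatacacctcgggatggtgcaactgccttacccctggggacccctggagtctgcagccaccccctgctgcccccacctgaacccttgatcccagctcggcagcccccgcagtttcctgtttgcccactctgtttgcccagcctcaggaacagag
Apoa5, chr9:46268383-46268632, plus strand: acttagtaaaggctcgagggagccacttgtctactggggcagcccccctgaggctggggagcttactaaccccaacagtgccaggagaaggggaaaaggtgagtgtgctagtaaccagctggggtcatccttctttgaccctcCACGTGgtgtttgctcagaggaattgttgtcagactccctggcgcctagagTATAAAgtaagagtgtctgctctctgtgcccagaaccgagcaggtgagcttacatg
The capitals in the Apoa4 window are CAAAGTNCA, the core of an HNF4 site, and those in the Apoa5 window are an E-box (CACGTG) and a TATA box (TATAAA). Over the 250 bases before each RefSeq start, on both strands, the HNF4 core was present in 1.19% of 32851 mouse promoters, the E-box in 6.02% and the TATA box in 12.4%. A nuclear receptor half-site (AGGTCA, in 14.02% of promoters) and a cAMP response element half-site (TGACGT, in 6.47%) were not in these 3 windows. None of the searched motifs overlaps another here. Promoters were on hand for 8 of the 10 genes, all but Apoc1 and Apoc3.

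Apoa4 had the widest range of the 10 genes as a fold between livers. It was at 380, 488, 1330 and 1785 CPM in the 4 ff;ff livers and at 6507, 7618, 8596 and 8844 CPM in the 4 Cpt2L-/- livers. The DKO livers held 4286, 4750, 6487 and 7741 CPM. Every Cpt2-deficient liver except those DKO livers at 4286 and 4750 CPM was above all 16 others, the highest of which was the Rab30L-/- liver Rab30cff979 at 4850 CPM. In the other Rab30L-/- livers Apoa4 was at 1016, 1535 and 2163 CPM. The Rab30 Ctrl livers ranged from 192 to 782 CPM and the Rab30KO livers from 143 to 386 CPM. Apoa4 thus varied 4.69-fold within ff;ff, 4.77-fold within Rab30L-/- and 4.07-fold within Rab30 Ctrl, but 1.36-fold within Cpt2L-/-.

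**Figure D1:**
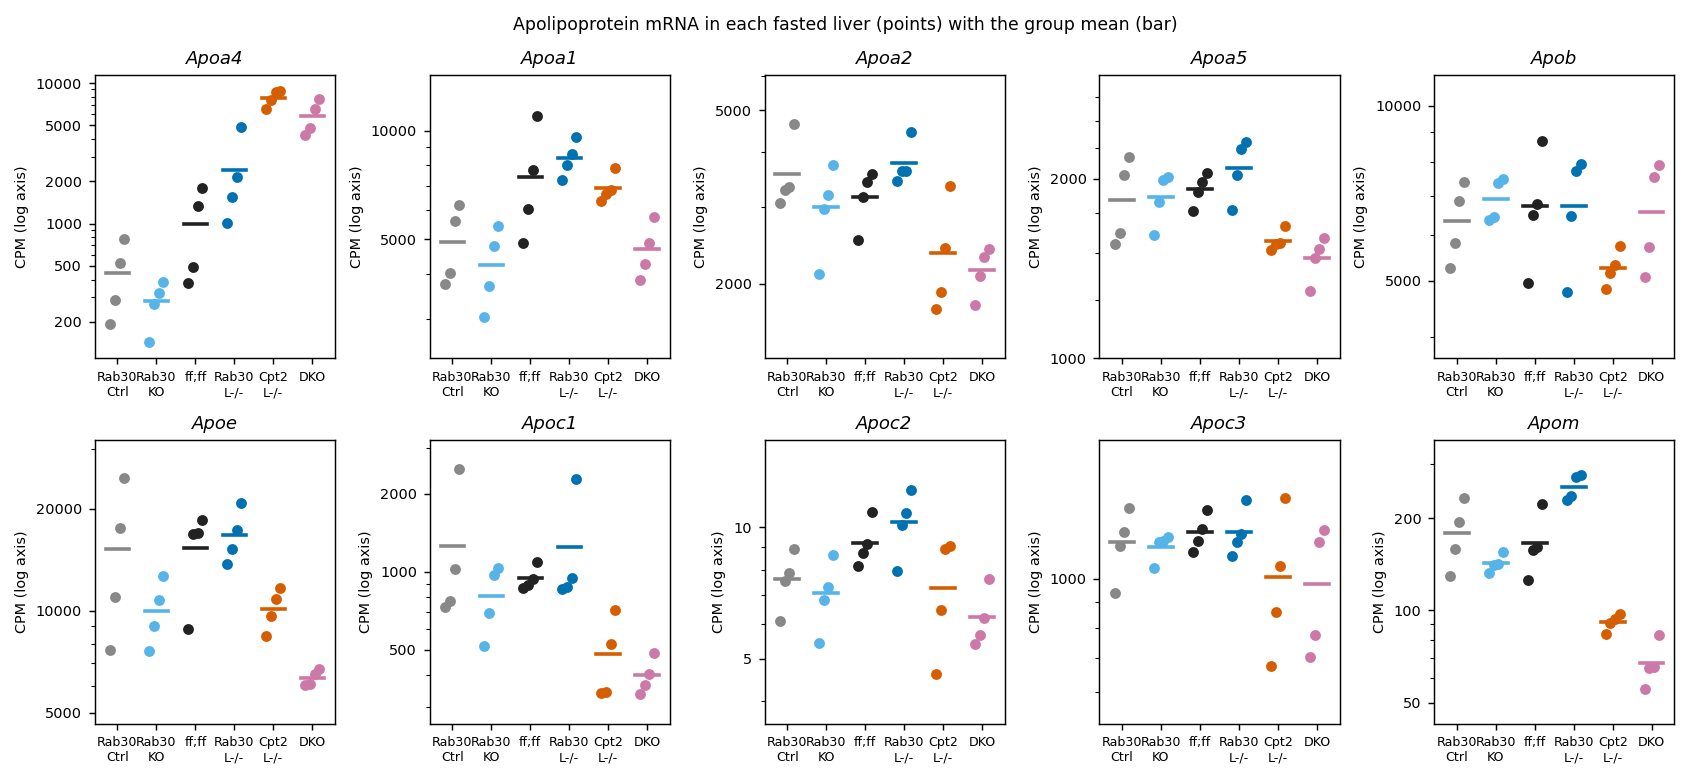
CPM of each of the 10 genes (log axis, own scale per panel) in every liver, grouped by genotype, with a bar at the mean of 4 livers. Apoa4 has means of 280 to 996 CPM in the Rab30KO, Rab30 Ctrl and ff;ff groups, 5816 in DKO and 7891 in Cpt2L-/-, while Apom and Apoc1 have their lowest means in those last 2 groups.

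Loss of Cpt2 in the liver was tested first, to ask which apolipoprotein genes differ when hepatocytes cannot oxidize long-chain fatty acids. In Cpt2L-/- against ff;ff, 1 of the 10 genes was called higher and 2 lower, beside 23.8% of 13270 genes tested (11.9% higher and 11.9% lower). Apoa4 rose 7.83-fold (log2 fold change 2.97, SE 0.475, adjusted p = 0.00145), with no overlap between the groups. Apoc1, a small exchangeable apolipoprotein that restrains lipoprotein lipase and particle uptake, fell from 945 ± 102 to 482 ± 179 CPM (SD over 4 livers each), a log2 fold change of -0.99 (SE 0.224, adjusted p = 0.00615). Apom fell from 167 ± 40.4 to 91.4 ± 5.69 CPM (SD over 4 livers each), a log2 fold change of -0.88 (SE 0.165, adjusted p = 0.00186). Apoc1 was at 340, 344, 529 and 715 CPM in the Cpt2L-/- livers and 863, 887, 941 and 1091 CPM in the ff;ff livers, which did not overlap. The 4 Cpt2L-/- livers lay between 83.9 and 97.3 CPM for Apom, below the lowest ff;ff liver at 126 CPM.

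The other 7 genes did not pass the test in this comparison. Apob, which VLDL cannot do without, was at 5263 ± 369 CPM in Cpt2L-/- and 6733 ± 1545 CPM in ff;ff (SD over 4 livers each), a log2 difference of -0.37 with a 95% interval from -0.77 to 0.04. For Apoa1 the difference was -0.11, with an interval from -0.62 to 0.39. Apoe was at 10151 ± 1424 CPM against 15300 ± 4392 (SD over 4 livers each), a log2 difference of -0.60 with an adjusted p of 0.0737. One control, ffff238, was at 8815 CPM for Apoe while the other ff;ff livers were between 16876 and 18558 CPM. Without that library the Apoe difference was -0.80 (adjusted p = 0.00469). Over all fits with a library left out it ran from -0.80 to -0.51, with adjusted p as high as 0.182. Apoe was called lower by DESeq2's Wald test, by limma-voom and with no low-count filter. With the mitochondrial share of counts as a covariate it was not called (-0.295, adjusted p = 0.175). The Apoa5 groups did not overlap (1520 to 1669 against 1767 to 2046 CPM), yet the adjusted p was 0.149. The median log2 difference of the 10 genes was -0.36, beside -0.0035 over all genes.

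Cpt2 loss on the Rab30-deficient background, DKO against Rab30L-/-, used none of the same libraries. Here 7 of the 10 genes were called lower and none higher, beside 30.7% of 13292 genes, 15.8% lower and 14.9% higher. Apom fell 3.77-fold, from 254 ± 24.8 to 67.2 ± 11.6 CPM (SD over 4 livers each, log2 fold change -1.92, SE 0.145, adjusted p = 1.56e-05). The DKO livers held 55.5, 64.9, 65.2 and 83.3 CPM of Apom, far below the lowest Rab30L-/- liver at 229 CPM. Apoc1 fell by 1.63 and Apoe by 1.40 on the log2 scale. For Apoc1 the DKO livers were at 337, 367, 403 and 488 CPM and the Rab30L-/- livers at 862, 874, 951 and 2291 CPM, and without the last of these the log2 fold change was -1.18. Apoe was at 13727, 15181, 17337 and 20738 CPM in the Rab30L-/- livers, each more than any DKO liver. Apoa1, Apoa2, Apoc2 and Apoa5 fell by 0.84, 0.81, 0.72 and 0.50. Apoa1 was at 3845, 4254, 4890 and 5744 CPM in DKO and 7305, 8018, 8628 and 9619 CPM in Rab30L-/-. Apoa2 was at 1789, 2088, 2306 and 2400 CPM in DKO and 3432, 3622, 3627 and 4454 CPM in Rab30L-/-. Neither pair of groups overlapped. With the mitochondrial share of counts as a covariate, described further on, none of these 7 calls was kept. In that fit 5 of the 7 differences were larger in size and those of Apoa1 and Apoa5 were -0.083 each. The adjusted p ran from 0.0866 for Apom to 0.987 for Apoa1 and Apoa5. The groups do not overlap in that share, so these adjusted sizes are poorly determined. The Apoa5 call was lost without DKO233, DKO943, Rab30cff978 or Rab30cff979 (adjusted p from 0.0501 to 0.0674). Apoa4 was 2.45-fold higher in the means of the fit but did not pass (log2 difference 1.29, SE 0.438, adjusted p = 0.0505). Without the Rab30L-/- liver at 4850 CPM the log2 fold change was 1.87 (adjusted p = 0.00172), and with it Apoa4 was called higher by DESeq2's Wald test (1.29, adjusted p = 0.0485) and by limma-voom (1.63, adjusted p = 0.00595). With other libraries left out the Apoa4 difference was as low as 1.04, and the adjusted p as high as 0.129. With the mitochondrial covariate Apoa4 was not called (1.99, adjusted p = 0.763). Apob differed by -0.04 with an interval from -0.51 to 0.44.

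Set side by side, the separate Cpt2 comparisons gave log2 differences of 2.97 and 1.29 for Apoa4, -0.88 and -1.92 for Apom, -0.99 and -1.63 for Apoc1, -0.60 and -1.40 for Apoe, and -0.11 and -0.84 for Apoa1. The second value, from the Rab30-deficient background, was the lower one for 9 of the 10 genes, the exception being Apob (-0.37 and -0.04). These genes come from the same livers and several follow each other, so they are not 10 separate results. No share over all genes was set beside this direction, and it was not tested. Their difference was tested as an interaction over 16 libraries, in which 1 of the 10 genes was called beside 4.06% of 14063 genes (2.20% higher and 1.86% lower). For Apom the change from Cpt2L-/- to DKO was 1.03 lower on the log2 scale than the change from ff;ff to Rab30L-/- (SE 0.220, adjusted p = 0.0137). With the mitochondrial covariate the Apom interaction was not called (-0.87, adjusted p = 0.0961), and those of Apob and Apoc3 turned sign (-0.040 and 0.012). For Apoa4 the interaction was -1.67 (SE 0.688, adjusted p = 0.174), and for Apoe it was -0.79 (SE 0.288, adjusted p = 0.122).

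Both deletions against neither, DKO against ff;ff, gave 1 gene of 10 called higher and 4 lower, beside 16.1% of 13389 (7.87% higher and 8.24% lower). Apoa4 rose 5.79-fold (log2 fold change 2.53, SE 0.489, adjusted p = 0.00699). Apom, Apoe and Apoc1 fell by 1.31, 1.28 and 1.25 on the log2 scale, with adjusted p-values of 0.000711, 0.00312 and 0.000439. With the mitochondrial covariate Apom and Apoc1 stayed called and Apoe did not (-0.72, adjusted p = 0.0623). Apoa2 fell by 0.57 with an adjusted p of 0.0469, a call that was lost when any 1 of 7 of the 8 libraries was left out, the exception being ffff238. The Apoa2 call was also lost over all 24 libraries (adjusted p = 0.0537) and with the mitochondrial covariate (-0.40, adjusted p = 0.286). Apoe was at 6044, 6091, 6496 and 6719 CPM in the DKO livers, a 1.11-fold range and the tightest group of any genotype for this gene. All 4 lay below the lowest liver of any other group, at 7639 CPM.

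**Figure D2:**
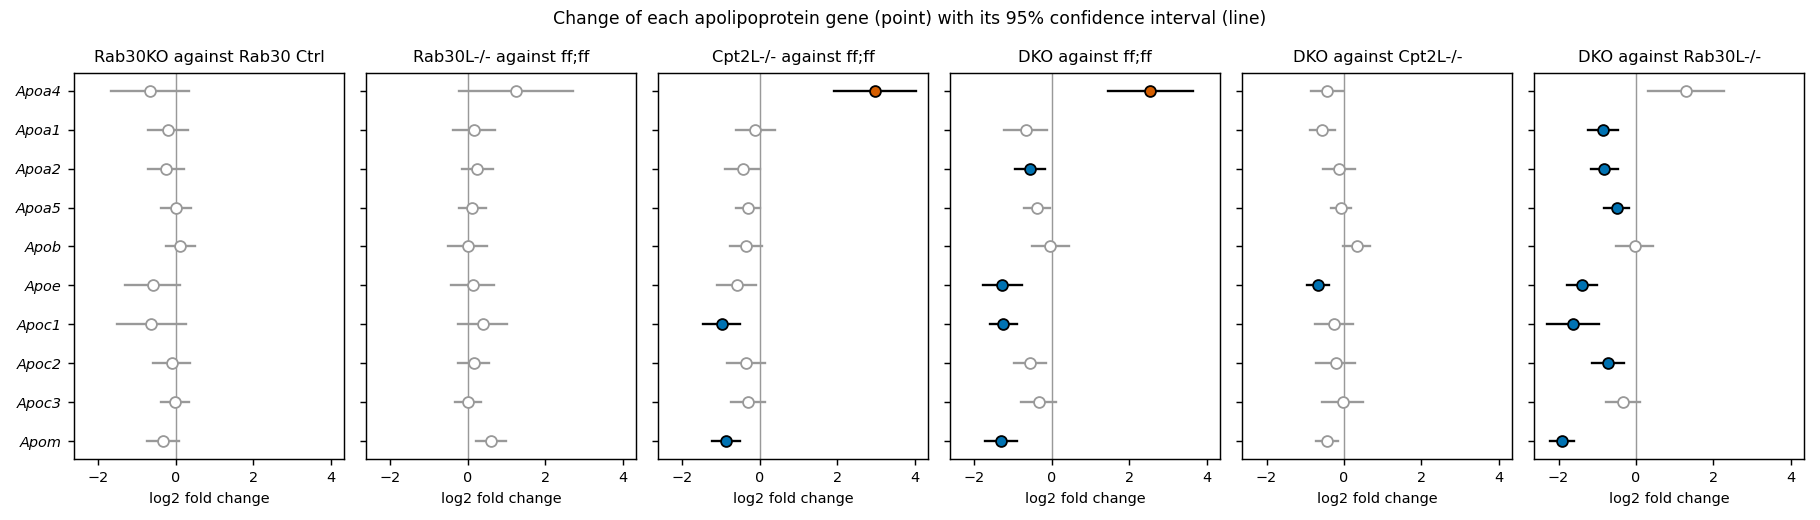
Log2 fold change of each gene (x axis) in 6 comparisons, as a point with its 95% confidence interval. Filled orange points were called higher, filled blue points lower, and open points did not pass. Apoa4 is filled orange in both comparisons of Cpt2-deficient livers with ff;ff, and 7 genes are filled blue in DKO against Rab30L-/-.

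The effect of Rab30 loss was asked in 3 comparisons. Rab30KO against Rab30 Ctrl, groups that the whole-gene Rab30 count does not separate, gave 0 called genes of 10, beside 0.0220% of 13656, and 0 of the 10 had an unadjusted p under 0.05. DESeq2's Wald test, limma-voom and the fits with a library left out also called 0 of the 10. The Apoa4 mean was 445 ± 264 CPM for Rab30 Ctrl and 280 ± 103 CPM for Rab30KO (SD over 4 livers each), a log2 difference of -0.67 with an interval from -1.68 to 0.33. The intervals for Apoe (-1.31 to 0.11) and Apoc1 (-1.53 to 0.25) were also wide, and those for Apoc3 (-0.39 to 0.33) and Apoa5 (-0.37 to 0.39) narrower. Decreases of 2-fold in Apoa4, Apoe and Apoc1 thus lay inside the intervals.

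Rab30L-/- against ff;ff likewise gave 0 called genes of 10, beside 0.479% of 13367 (0.299% higher and 0.180% lower), with 1 gene at an unadjusted p under 0.05. That gene was Apom, at 229, 237, 273 and 278 CPM in Rab30L-/- and 126, 157, 161 and 222 CPM in ff;ff. The groups did not overlap, and the log2 difference was 0.60 (SE 0.177, unadjusted p = 0.00525, adjusted p = 0.211). Apoa4 differed by 1.24 with an interval from -0.23 to 2.71 (adjusted p = 0.517). Apob, Apoc3 and Apoe differed by -0.0034, -0.0051 and 0.12.

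In DKO against Cpt2L-/-, 1 of the 10 genes was called, beside 2.71% of 13306 (1.38% higher and 1.33% lower). Apoe fell 1.59-fold, from 8430 to 11709 CPM in the Cpt2L-/- livers to 6044 to 6719 CPM in the DKO livers (log2 fold change -0.67, SE 0.132, adjusted p = 0.0256). The call was lost without Cpt2801, Cpt2802, DKO232 or DKO233, where the adjusted p ran from 0.0611 to 0.0992 and the log2 fold change from -0.68 to -0.60. It was also lost in a fit over all 24 libraries (adjusted p = 0.232). Apoa1 (3845 to 5744 against 6381 to 7863 CPM) and Apom (55.5 to 83.3 against 83.9 to 97.3 CPM) did not overlap between the groups, with log2 differences of -0.56 and -0.43 and adjusted p-values of 0.0684 and 0.0903. The Apoa4 difference was -0.43, with an interval from -0.84 to -0.02 and an adjusted p of 0.214. Apob was at 6564 ± 1382 CPM in DKO and 5263 ± 369 CPM in Cpt2L-/- (SD over 4 livers each, adjusted p = 0.261).

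Levels were compared between genes on the deposited FPKM values, which divide by transcript length. Apoe led in ff;ff at 7282 ± 2083 FPKM (SD, n = 4), followed by Apoa1 at 6125 ± 2239 and Apoa2 at 6003 ± 870. These means differed by less than their spread. Apoa4 ranked 7th there at 560 ± 383 FPKM, just above Apob at 492 ± 112. In Cpt2L-/- Apoa4 ranked 4th at 4393 ± 563 FPKM, beside Apoa2 at 4432 ± 1303 and Apoe at 4796 ± 632. In DKO it ranked 3rd at 3267 ± 887 FPKM, above Apoe at 3024 ± 152. Apoa4 made up 18.4% to 21.7% of the summed FPKM of the 10 genes in Cpt2L-/- livers and 15.2% to 24.1% in DKO livers, against 0.853% to 3.59% in ff;ff. The ratio of Apoa4 to Apoa1 FPKM within a liver, which no scaling between libraries can move, was 0.666 to 0.918 in Cpt2L-/- and 0.686 to 0.918 in DKO. It was 0.0863 to 0.383 in Rab30L-/-, 0.0427 to 0.116 in ff;ff, 0.0233 to 0.142 in Rab30 Ctrl and 0.0263 to 0.0726 in Rab30KO.

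**Figure D3:**
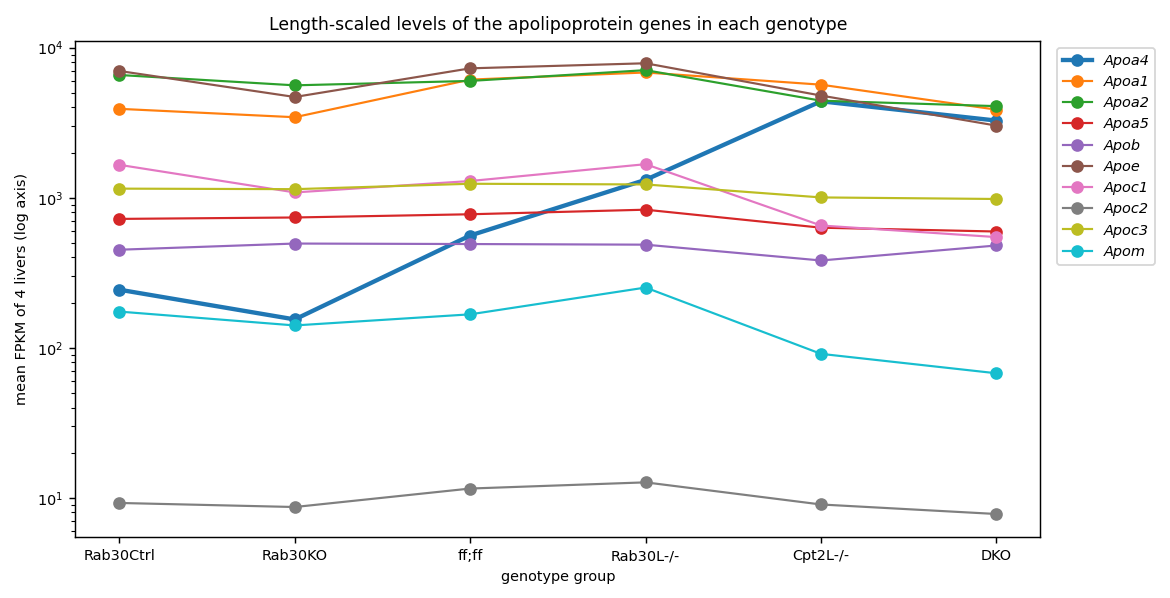
Mean FPKM of each gene over 4 livers (log axis) in the 6 genotype groups. Apoa4 (thick line) moves from 155 FPKM in Rab30KO to 4393 in Cpt2L-/-, where it stands beside Apoa2, while Apoc2 is lowest in every group at 7.82 to 12.7 FPKM.

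Order of the group means on the CPM scale was Cpt2L-/-, DKO, Rab30L-/-, ff;ff, Rab30 Ctrl and Rab30KO for Apoa4, and each group overlapped the next. Apoe was ordered Rab30L-/-, ff;ff, Rab30 Ctrl, Cpt2L-/-, Rab30KO and DKO, with a gap only before DKO. For Apom the order was Rab30L-/-, Rab30 Ctrl, ff;ff, Rab30KO, Cpt2L-/- and DKO, with gaps before each of the last 2. In Apob, Apoc3 and Apoa5 every group overlapped the next one. Apob means spanned only 5263 to 6911 CPM, and Apoc3 means 976 to 1237 CPM.

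Genes next to Apoa4 and Apoe in the genome were set beside them. In Cpt2L-/- against ff;ff, Apoa1, Apoc3 and Apoa5, all within 43.3 kb, had log2 differences of -0.11, -0.31 and -0.30, and none was called. Of the nearest expressed genes outside the cluster, Pafah1b2 and Sik3 on the Apoa1 side differed by 0.09 and -0.25 and were not called. Zpr1 and Bud13 on the Apoa5 side fell by 0.70 and 1.25. More than 1 gene of the chromosome 7 cluster (27.6 kb, all on the minus strand) was called lower in DKO against ff;ff: Apoc4, Apoc1 and Apoe fell by 1.06, 1.25 and 1.28, and Apoc2 differed by -0.58 (adjusted p = 0.0599). The flanking genes Clptm1, Tomm40 and Nectin2 differed by -0.09, -0.30 and 0.02 and were not called, while Relb, at 0.995 CPM in ff;ff, rose by 1.91. Apoe lies at chr7:19696109-19699188 (ENSMUSG00000002985), Apoc1 at chr7:19689481-19692660 (ENSMUSG00000040564) and Apoc2 at chr7:19671579-19677941 (ENSMUSG00000002992). Apoa2 (ENSMUSG00000005681, chr1:171225054-171226379), Apob (ENSMUSG00000020609, chr12:7977648-8016835) and Apom (ENSMUSG00000024391, chr17:35128997-35132050) lie elsewhere.

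**Figure D4:**
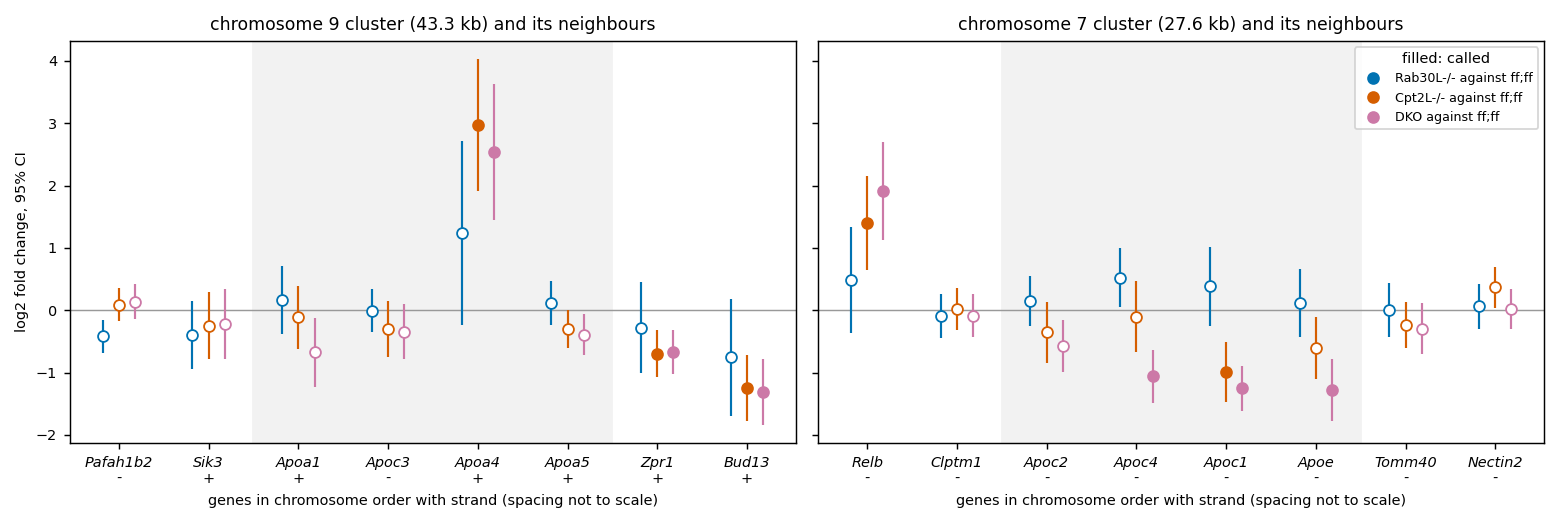
Log2 fold change with its 95% interval for the genes of both clusters (grey band) and the nearest expressed protein-coding genes on each side, in chromosome order and not to scale. Filled points were called. Apoa4 stands at 2.97 in Cpt2L-/- and 2.53 in DKO, where no other gene of its cluster is above 0, Bud13 lies at -1.25 and -1.31, and Apoc4, Apoc1 and Apoe are below 0 together in DKO.

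Overlapping annotation touches 3 of the genes. Of the exonic bases of Apoa4 69.8% are also in genes of the opposite strand, Gm47528 and Gm10680, and strand use in counting was not given in the sources used here. Gm47528 had 8 to 692 counts per library and Gm10680 had 0, beside 1734 to 138283 for Apoa4. For Apoc2 79.5% of the exonic bases are in the readthrough gene Gm44805, which had at most 3 counts, so the low Apoc2 level of 66 to 257 counts per library is uncertain. Of the exonic bases of Apoa5 20.8% are in Gm47544, on the opposite strand, which had 0 counts.

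Livers of the same genotype also differed in a way that several of the genes shared. Mitochondrial genes took 4.31% to 9.25% of the counts. Across 24 libraries log2 CPM of Apoe correlated with that share at r = -0.83, and at r = -0.75 after the group means were removed. The same values were -0.74 and -0.75 for Apoa1, -0.67 and -0.45 for Apom, 0.31 and 0.56 for Apob, and 0.14 and 0.09 for Apoa4. These are descriptions over points that share genotype and library, and both measures come from the same counts. The control ffff238, low in Apoe, had 7.86% mitochondrial counts, against 4.66% to 5.30% in the other ff;ff livers. Rab30L-/- livers had 4.31% to 4.86% and DKO livers 6.60% to 7.67%, with no overlap, so in that comparison the share and the genotype cannot be told apart. Cpt2L-/- livers had 6.10% to 7.32%. Of the ff;ff livers only ffff238 was not below every Cpt2L-/- and DKO liver. Fits against ff;ff with the share as a covariate therefore depend largely on that library.

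With the mitochondrial share as a covariate, an alternative chosen after seeing the data, Apoa4 stayed called in Cpt2L-/- against ff;ff (log2 fold change 3.34, adjusted p = 0.00234) and in DKO against ff;ff (3.33, adjusted p = 0.0173), as did Apom (-0.74 and -1.06) and Apoc1 (-0.90 and -1.21). Apob, not called without the covariate, was called lower in Cpt2L-/- against ff;ff (-0.48, adjusted p = 0.0461). Apoe lost its call in DKO against ff;ff, as given above, and in DKO against Cpt2L-/- it had -0.55 (adjusted p = 0.421). Apom in the interaction had -0.87 (adjusted p = 0.0961). In DKO against Rab30L-/- 0 of the 10 genes were then called, beside 20 of all genes, while the log2 differences were -2.83 for Apom, -2.47 for Apoc1, -1.64 for Apoe, -1.52 for Apoa2 and -1.26 for Apoc2, larger in size than without the covariate, and -0.083 for both Apoa1 and Apoa5. With no overlap in the share, that fit cannot show whether any of these differences stays or vanishes. The part of the share in the Apoe values was not tested further.

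**Figure D5:**
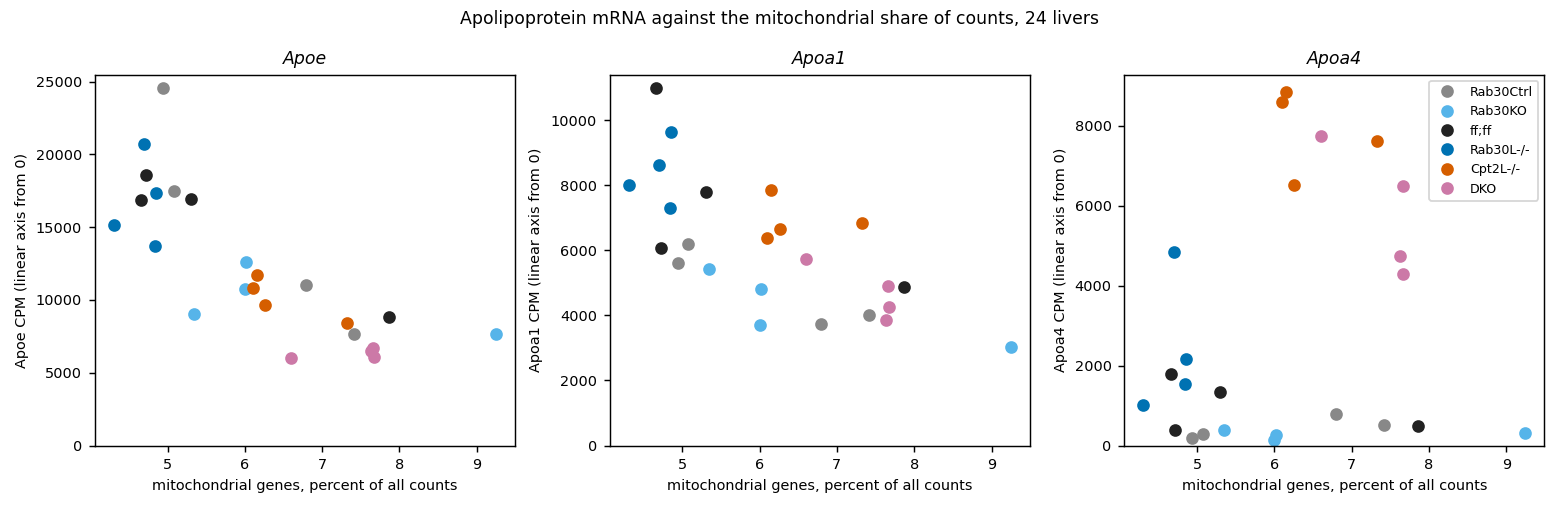
CPM of Apoe, Apoa1 and Apoa4 (linear axes from 0) against the mitochondrial percent of counts in 24 livers, coloured by genotype. Apoe is highest, up to 24561 CPM, at shares near 5% and lowest in the DKO livers, and Apoa4 is highest in the Cpt2L-/- and DKO livers.

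Macrophages also make Apoe and Apoc1, so their markers are given beside these genes. Of 10 Kupffer cell and macrophage markers, 3 were called lower and 1 higher in Cpt2L-/- against ff;ff, 5 lower and 1 higher in DKO against ff;ff, 8 lower and 1 higher in DKO against Rab30L-/-, and 0 in DKO against Cpt2L-/-. Over all genes 23.8%, 16.1%, 30.7% and 2.71% were called in these comparisons. The marker that rose was Cd68. Their summed level was 185 to 329 CPM in ff;ff, 220 to 588 in Rab30L-/-, 182 to 254 in Cpt2L-/- and 163 to 227 in DKO, and no marker was at 0 in any group. Their part in the Apoe and Apoc1 results was not tested. Of 8 hepatocyte markers 5 were called lower and 1 higher in Cpt2L-/- against ff;ff, with albumin at a log2 fold change of -1.41. Of 5 red blood cell genes 4 were called lower there, and 2 of 7 endothelial markers were called higher in DKO against Rab30L-/-. Apob, Apoa1 and Apoc3 were not called in Cpt2L-/- against ff;ff.

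The 7 other apolipoprotein genes on the list, of which 6 were tested, were described the same way. In Cpt2L-/- against ff;ff 5 fell and 0 rose, beside 11.9% of all genes in each direction. Saa4, a constitutive HDL protein, went from 202 to 9.83 CPM (log2 fold change -4.38, adjusted p = 1.91e-07). Apoh, which binds phospholipid, and the chaperone Clu fell by 1.12 and 0.76. In DKO against Cpt2L-/- Apon, a secreted protein of HDL, rose by 0.98 and Apoc4 fell by 0.95.

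Of 12 genes of lipoprotein assembly and export, 2 rose and 1 fell in Cpt2L-/- against ff;ff, a share near the 23.8% of all genes called. Mttp, the transfer protein that loads lipid onto Apob, rose from 339 ± 33.3 to 670 ± 44.5 CPM (SD over 4 livers each, log2 fold change 0.97, SE 0.144, adjusted p = 0.000344). It rose by as much in DKO against Rab30L-/- (0.99) and differed by -0.03 between DKO and Cpt2L-/-, with an interval from -0.31 to 0.25. Sort1, a sorting receptor for Apob, rose by 1.35 and Tm6sf2, a lipidation factor of the endoplasmic reticulum, fell by 1.006. In DKO against Cpt2L-/- Sort1 and Cideb fell by 0.72 and 0.48, and Sar1b, the GTPase of the coat that carries lipoproteins out of the endoplasmic reticulum, rose by 0.54.

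Receptors, lipases and remodelling enzymes act on the particles after secretion. Of 9 receptor genes 3 fell and 1 rose in Cpt2L-/- against ff;ff, beside 11.9% of all genes in each direction. Scarb1, the HDL receptor, fell by 1.47, and Sdc1 and Lrp1, which take up remnant particles, fell by 1.08 and 0.82. Apobr rose from 0.906 to 5.41 CPM. Of 11 genes of lipases and remodelling 4 fell and 1 rose, beside the same shares. Hepatic lipase Lipc fell by 1.15 and the cholesterol-esterifying enzyme Lcat by 0.81, and the phospholipid transfer protein Pltp rose by 0.65.

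Among 21 transcription factors known to act on apolipoprotein genes, 1 rose and 7 fell in Cpt2L-/- against ff;ff, where 11.9% of all genes were called in each direction. Creb3l3, a fasting-induced factor of the Apoa4 gene, was at 557 ± 65.7 CPM against 500 ± 62.0 (SD over 4 livers each), a log2 difference of 0.14 with an interval from -0.19 to 0.47. Ppara differed by 0.73 (adjusted p = 0.0691) and Hnf4a by -0.35 (adjusted p = 0.301). The clock repressor Nr1d1 rose by 1.90, and Nr0b2 and Foxo1 fell by 3.94 and 1.02. In DKO against Cpt2L-/- Nr1d1 fell by 1.22. None of these pathway genes was called in Rab30KO against Rab30 Ctrl or in Rab30L-/- against ff;ff.

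Of 7688 other protein-coding genes with a mean of at least 10 CPM, those whose log2 CPM followed Apoa4 most closely over 24 libraries were Cntnap1 (r = 0.948), Cgref1 (0.946), Cidec (0.935), Tmem120a (0.932) and Tor1a (0.927). After removal of the group means the values were 0.60, 0.64, 0.67, 0.57 and 0.41. Cidec, a lipid droplet protein, had group means of 9.63 CPM in Rab30KO, 38.9 in ff;ff, 41.8 in Rab30L-/-, 326 in DKO and 451 in Cpt2L-/-. Among the 10 genes Apoa2 and Apoc1 followed each other most closely, at 0.91 and, within groups, 0.78. Apoe and Apom had 0.83 and 0.69. Apoa4 had negative values with Apom (-0.54) and Apoc1 (-0.52), which after removal of the group means were -0.15 and 0.06. With Creb3l3, Ppara and Rab30 the values for Apoa4 were 0.81, 0.34 and 0.85, and within groups 0.42, 0.09 and 0.43.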

How the data were processed

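Liver RNA of 24 mice was sequenced by a company, and one count per gene and library was used here. The deposited count table holds whole, unnormalized read counts for each gene. The authors also deposited FPKM values, which equal the count divided by gene length and by one constant per library, 0.875 to 1.17 times an FPKM on library totals. The submitters' processing notes name HISAT2, DESeq2, GRCm38 and mm10. The counter and the use of strand are not given in the sources used here. Of the genes 98.2% had the coordinates of GENCODE M21. Tables of the authors' comparisons (fold changes and p-values) and their normalized counts were not used.

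Groups came from the labels. Genes were kept by filterByExpr, scaled by TMM and fitted with edgeR 4.0.16 (glmQLFit with robust estimation, glmQLFTest) in R 4.3.3, on the 8 libraries of each comparison or 16 for the interaction. The edgeR test was tested on simulated counts with 200 genes changed 2-fold, of which it recovered 33.5% for Rab30KO against Rab30 Ctrl (13419 genes), 41% for Rab30L-/- against ff;ff (13141), 56.5% for Cpt2L-/- against ff;ff (13070), 63% for DKO against Cpt2L-/- (13107), 56% for DKO against Rab30L-/- (13099), 41.5% for DKO against ff;ff (13164) and 17% for the interaction (13829). False calls were 0% of those made for Rab30KO against Rab30 Ctrl and 3.49% for DKO against ff;ff. For the other comparisons they were 5.26% to 8.94%, above the 5% aimed at, and highest for DKO against Rab30L-/-. Levels and correlations were computed on CPM scaled over all 24 libraries (correlations on log2(CPM + 1)), and intervals are 95% intervals of edgeR's test. Every pair of libraries of a group differed by more than counting noise. The study calls the livers biological replicates. Reads carry no molecular identifiers. Promoters came from RefSeq (GRCm38.p6), matched by symbol for 8 of the 10 genes.

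Members and gene lists were chosen with earlier results of these data known. Named by rule were the 10 members, Rab30 and Cpt2, from each pathway list up to 3 genes called higher and 3 lower with the smallest adjusted p in Cpt2L-/- against ff;ff, list genes called with Rab30 loss, Creb3l3, Ppara, Hnf4a and Mttp, 2 tested genes on each side of either cluster, and the 5 genes most like Apoa4. Markers and Apoc4, Gm44805, Gm47528 and Gm10680 were named beside results that involve them. Some list genes that the rule names are not reported here. Alternatives were DESeq2 1.42.0 size factors and Wald test, limma 3.58.1 voom with quality weights, TMM without the members, no low-count filter, all 24 libraries in a fit, no fold threshold, each library left out and, added later, the mitochondrial share as a covariate.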

Additional observations from a re-analysis of the deposited data

Results flagged for a closer look

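WT952, the deepest Rab30 Ctrl library, stood apart for 2 genes. Its Apoa2 was at 4640 CPM, with the next liver of the group at 3328, and its Apoc1 was at 2488 CPM, with the next at 1028. Apoc1 was also at 2291 CPM in the Rab30L-/- library Rab30cff979, the deepest of all, with the next liver of that group at 951 CPM. In each case the gap to the next liver, as a share of the group's range (0.832, 0.831 and 0.938), passed Dixon's 95% critical value for 4 samples. Chance flags about 1 in 20 groups, and 3 of the 60 groups of a gene and a genotype were flagged where chance gives about 3. Leaving out either library changed no call of Apoa2 or Apoc1.

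Rab30 loss was followed by different Apom values with and without Cpt2. The interaction was -1.03 on the log2 scale (adjusted p = 0.0137 by edgeR's quasi-likelihood test over 16 libraries): Apom was at 254 CPM in Rab30L-/- against 167 in ff;ff, and at 67.2 CPM in DKO against 91.4 in Cpt2L-/-. It was called in each fit that left out 1 library (adjusted p of at most 0.0327), and not with the mitochondrial share as a covariate (-0.87, adjusted p = 0.0961).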

How the results depend on the processing

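Apoa4, Apoc1 and Apom in Cpt2L-/- and in DKO against ff;ff kept their direction throughout, and their calls with 2 exceptions: Apoa4 in DKO had an adjusted p of 0.0523 with no low-count filter, and Apoc1 in Cpt2L-/- had 0.0558 over all 24 libraries. Under limma-voom Apoa4 was also called lower in DKO against Cpt2L-/- (-0.63). Apoa4 in Cpt2L-/- against ff;ff ranged from 2.70 to 3.41 on the log2 scale when a library was left out. Scaling choices changed no member's call. Where a count moved, the cause was not tested. No paired analysis was possible because the labels give the groups no shared replicate numbers.

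Called members in Cpt2L-/- against ff;ff were 5 by the Wald test and 5 by limma-voom. In DKO against ff;ff they were 8 and 9, and 3 with the mitochondrial covariate. In DKO against Cpt2L-/- they were 3 and 4, 2 with no filter, 0 over all 24 libraries and 0 with the covariate. In DKO against Rab30L-/- they were 8 and 9, and 0 with the covariate, a fit in which share and genotype cannot be told apart. In the interaction they were 0 with the covariate and 2 by limma-voom. With a library left out they ran from 3 to 4 in Cpt2L-/- against ff;ff, 4 to 6 in DKO against ff;ff, 0 to 2 in DKO against Cpt2L-/- (0 without Cpt2801, Cpt2802, DKO232 or DKO233, 2 without DKO247 or DKO943), 6 to 7 in DKO against Rab30L-/-, 1 to 2 in the interaction (2 without ffff242) and 0 to 0 in both other Rab30 comparisons.

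Genes called in DKO against Cpt2L-/- were 360, with 114 over all 24 libraries, 1032 by the Wald test, 1534 by limma-voom, 25 with the covariate and 705 with no filter. In DKO against ff;ff limma-voom gave 3739 beside 2157, and in DKO against Rab30L-/- the covariate gave 20 beside 4081. The interaction's 571 became 374, 1080, 1268 and 217 with all libraries, the Wald test, limma-voom and the covariate. Rab30KO against Rab30 Ctrl gave 9 with all libraries, 10 by the Wald test and 6 with no filter. Rab30L-/- against ff;ff gave 298, 236, 28 and 240 by the Wald test, limma-voom, the covariate and no filter. With a library left out the counts ran from 2352 to 3459 in Cpt2L-/- against ff;ff, 57 to 445 in DKO against Cpt2L-/- (lowest without Cpt2802), 3204 to 3976 in DKO against Rab30L-/-, 1485 to 2675 in DKO against ff;ff, 0 to 4 in Rab30KO, 23 to 93 in Rab30L-/- (lowest without Rab30cff980) and 300 to 679 in the interaction.

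Every sign that turned was of a difference not called by edgeR, the widest being Apoc3 in DKO against Rab30L-/- (-0.34, called lower by limma-voom at -0.53), Apoc1 in Rab30L-/- (0.38) and Apob in the interaction (0.33). By limma-voom they were Apoa2 in DKO against Cpt2L-/- (0.055), Apoa5 in Rab30KO (-0.031), Apob in DKO against ff;ff (0.10), against Rab30L-/- (0.057) and in Rab30L-/- (0.050), and Apoe in Rab30L-/- (-0.10). Over all 24 libraries it was Apoc3 in Rab30L-/- (0.0022). With the covariate they were Apoa1 in Cpt2L-/- (0.11) and Rab30L-/- (-0.035), Apoa2 in DKO against Cpt2L-/- (0.0067), Apob in the interaction (-0.040) and Rab30L-/- (0.18), Apoc3 in DKO against Cpt2L-/- (0.26), against Rab30L-/- (0.46), in the interaction (0.012) and in Rab30L-/- (0.049), and Apoe in Rab30L-/- (-0.12). With a library left out the ranges were -0.27 to 0.14 for Apoa1 in Cpt2L-/-, -0.23 to 0.084 for Apoa2 in DKO against Cpt2L-/-, -0.064 to 0.10 for Apoa5 in Rab30KO, -0.18 to 0.082, -0.17 to 0.10 and -0.13 to 0.14 for Apob in DKO against Rab30L-/-, DKO against ff;ff and Rab30L-/-, -0.071 to 0.52 for Apoc1 in Rab30L-/-, -0.22 to 0.013 for Apoc2 in Rab30KO, -0.19 to 0.18, -0.12 to 0.049, -0.069 to 0.044 and -0.18 to 0.18 for Apoc3 in DKO against Cpt2L-/-, Rab30KO, Rab30L-/- and the interaction, and -0.073 to 0.22 for Apoe in Rab30L-/-.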
